A study of Mus musculus with 6 samples.

Results

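Mcpt4, Mal and Rtn1 are 3 of the 31053 genes counted in single cells of the mouse mitral valve. They were selected on a measured contrast in these same libraries: their level in fibroblasts lay lower in K/B.g7 than in B.g7 mice at each of the 3 ages. All 3 symbols matched 1 gene each. The genes are followed here in fibroblasts, defined as cells in which Dcn, Col1a1 and Col1a2 together took at least 1% of the unique molecular identifiers (UMIs, 1 per captured transcript), and in the other cell kinds of the valve. This gave 37546 fibroblasts among 53526 cells kept.

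Live cells were sorted from digested mitral valves, and droplet libraries with 3′ counting were made, 1 per genotype and age. K/B.g7 mice carry the KRN T cell receptor transgene together with the g7 class II molecule and develop autoantibody-driven arthritis and inflammation of the heart valves, and the libraries of this genotype are labelled inflamed. B.g7 mice carry the g7 molecule without the transgene and are the controls. Each genotype was sampled at 3, 8 and 25 weeks, which gives 6 libraries. How many mice went into a library is not given in the sources used here, so that a p-value below measures only the spread between these libraries.

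Mcpt4 encodes mast cell protease 4, a chymase that connective tissue mast cells store in their granules. Mal encodes a small tetraspan protein of lipid-rich membranes that is abundant in myelinating Schwann cells and in some epithelia. Rtn1 encodes a reticulon, a hairpin protein that shapes the tubules of the endoplasmic reticulum and is best known from neurons and neuroendocrine cells. Valve fibroblasts, also called valve interstitial cells, build the collagen, proteoglycan and elastin layers of the leaflet, and Wnt signals and their secreted inhibitors are part of how valves are formed. Wif1 encodes one of these inhibitors, which binds Wnt ligands outside the cell.

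The genes lie on different chromosomes. In GENCODE vM21 on GRCm38, the assembly behind mm10, Mcpt4 spans chr14:56059629-56062313, Mal chr2:127633226-127656695 and Rtn1 chr12:72211752-72409054, all on the minus strand. No other gene of that annotation overlaps any of the 3. The annotation behind the counts may be another version. The chymase gene Mcpt2 lies 15.0 kb from Mcpt4, and Cma2 and Cma1 lie 85.6 and 115.0 kb away. Chymase genes are related to each other, and reads of one may be counted for another, Mcpt4 included. This was not tested. All 3 genes matched a RefSeq start site (GRCm38.p6), Mcpt4 and Mal with 1 start and Rtn1 with 3. The 100 bases before a start are printed 5′ to 3′ on the gene's own strand, because they differ in kind between the members. Whether they bear on the levels was not tested. The capitals mark a TATA box in Mcpt4 and 2 overlapping GC boxes in Rtn1.
Mcpt4, chr14:56062311-56062410: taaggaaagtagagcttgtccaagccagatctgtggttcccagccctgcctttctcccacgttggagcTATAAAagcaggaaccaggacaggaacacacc
Mal, chr2:127656696-127656795: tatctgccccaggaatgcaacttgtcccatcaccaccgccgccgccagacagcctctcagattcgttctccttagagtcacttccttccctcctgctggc
Rtn1, second start, chr12:72236728-72236827: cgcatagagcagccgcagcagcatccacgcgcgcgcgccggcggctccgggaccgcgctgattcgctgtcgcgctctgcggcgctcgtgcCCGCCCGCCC

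A search for 3 motifs covered both strands of these 100 bases: the TATA box as TATAAA, the GC box as GGGCGG and the CCAAT box as CCAAT. Mcpt4 held TATAAA on its own strand, 32 to 27 bases before the start, a match found in 5.56% of 32851 RefSeq promoters of this length. The second Rtn1 start held 2 GC boxes on the opposite strand, which overlap each other, and its first start held 1, where 24.7% of promoters hold at least 1. None of the 3 motifs was in the window of Mal or of the third Rtn1 start, and CCAAT, present in 18.9% of promoters, was in none of the 5 windows. The second Rtn1 window was 78% G or C with 20 CpG, and that of Mal 58% with 4, beside medians of 55% and 3 over all promoters. These are matches of letters. Which Rtn1 start is used in these cells cannot be read from UMI sums per gene.

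The libraries held from 15196750 to 69152541 UMIs, and fibroblasts had a median of 3020.5 to 5952 UMIs. From 56.6 to 77.2% of the cells of a library were fibroblasts. Any pair of libraries shared 6 to 73 cell barcodes, at most 0.721% of the smaller library. The fibroblast definition is a range and not a type: 1546 to 9761 fibroblasts per library took 1 to 2% of their UMIs from the 3 defining genes, and 287 to 2367 cells lay at 0.5 to 1%. In CPM, which here is UMIs of the gene scaled to 1000000 UMIs of the group, the cells just above the 1% line held 7.38 to 40.8 of Mcpt4, 5.18 to 21.1 of Mal and 25.8 to 111 of Rtn1. Those just below it held 4.46 to 17.8 of Mcpt4, 12.05 to 41.7 of Mal and 26.8 to 111 of Rtn1.

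The contrast that selected the genes is given as a description, without a test. Mcpt4 stood at 9.66, 9.04 and 7.15 CPM in K/B.g7 fibroblasts at 3, 8 and 25 weeks, and at 24.7, 40.4 and 18.9 CPM in B.g7. The means were 8.62 ± 1.31 and 28.0 ± 11.1 CPM (SD, n = 3 libraries each). All 3 K/B.g7 libraries lay below the lowest B.g7 library. The ratio, B.g7 over K/B.g7, was 2.56, 4.47 and 2.64 in order of age, and the 95% interval at 8 weeks was 3.88 to 5.16 (exact, counting error only).

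Mal stood at 6.99, 5.98 and 4.68 CPM in K/B.g7 fibroblasts and at 17.1, 18.4 and 9.80 CPM in B.g7. The means were 5.88 ± 1.16 and 15.1 ± 4.63 CPM (SD, n = 3), and the ratios by age were 2.44, 3.08 and 2.09. The genotypes did not overlap, and within each of them the 25-week library was the lowest. Rtn1 stood at 28.9, 36.5 and 26.7 CPM in K/B.g7 and at 78.7, 118 and 53.9 CPM in B.g7. Its means were 30.7 ± 5.14 and 83.4 ± 32.1 CPM (SD, n = 3), and its ratios 2.73, 3.22 and 2.02. For all 3 genes the ratio was largest at 8 weeks, the age of the highest B.g7 library.

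**Figure D1:**
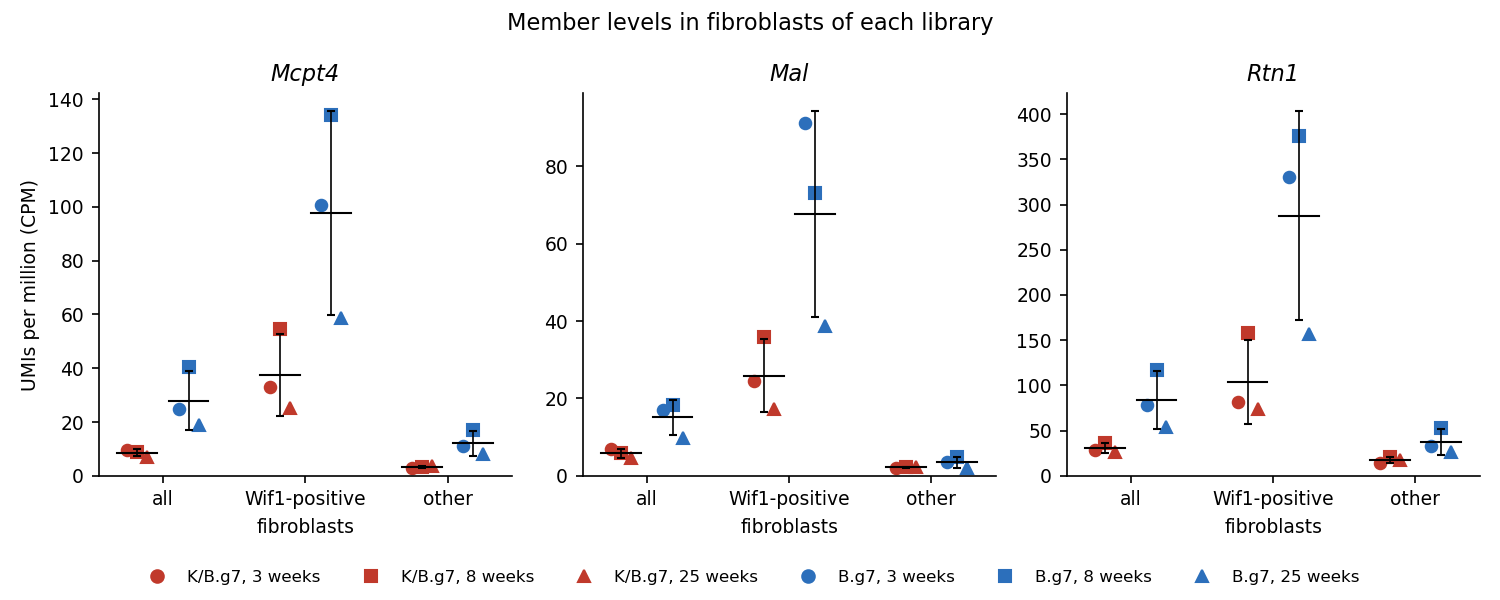
Level of Mcpt4, Mal and Rtn1 in CPM (vertical axis, linear, from 0) in all fibroblasts, in Wif1-positive fibroblasts and in the other fibroblasts, with 1 point per library, shaped by age and coloured by genotype, and with the mean and SD of the 3 libraries of a genotype. The K/B.g7 points of all fibroblasts lie below all B.g7 points for each gene, while Mal in the other fibroblasts overlaps between the genotypes.

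Few fibroblasts carried any of the 3 transcripts. A fibroblast with at least 1 UMI of a gene is called a carrier of it. Carriers of Mcpt4 were 814 of 37546 fibroblasts, those of Mal 933 and those of Rtn1 4080. By library, Mcpt4 carriers were 1.62, 1.62 and 1.08% of K/B.g7 fibroblasts and 3.16, 4.66 and 3.86% of B.g7 fibroblasts. Mal carriers were 2.38, 2.00 and 1.33% against 3.67, 5.21 and 3.75%. Rtn1 carriers were 7.84, 9.90 and 6.64% against 12.01, 22.1 and 17.3%. So the share of carriers was lower in every K/B.g7 library than in every B.g7 library for each gene, as the level was. Both come from the UMIs that selected the genes.

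Depth sets part of such shares, and the medians of fibroblast depth differed between libraries. After each fibroblast was thinned to 1000 UMIs, with 80 to 374 shallower fibroblasts per library left out, the share with Mcpt4 was 0.729, 0.544 and 0.449% in K/B.g7 and 1.34, 2.11 and 1.29% in B.g7. The share with Mal was 0.608, 0.362 and 0.323% against 1.66, 1.28 and 0.904%, and that with Rtn1 was 2.84, 3.18 and 2.34% against 5.34, 7.99 and 4.34%. The genotypes did not overlap in the thinned shares either. These shares come from the same fibroblast UMIs that selected the genes, so that they are a description and no separate support. In macrophage-like cells, taken as a kind that should lack Mcpt4, the thinned share of Mcpt4 was 0 to 0.326% over the 6 libraries, at a median depth of 2194 to 5989.5 UMIs before thinning. These cells were few, and 0 of 59 at 3 weeks in K/B.g7 allows a share of up to 6.06% (exact 95% interval).

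The transcripts were unevenly spread among fibroblasts. For Mcpt4, the 1% of fibroblasts with the most UMIs of the gene held 64.6 to 96.8% of its fibroblast UMIs in a library. Where carriers are about as few as that 1%, as in K/B.g7 at 25 weeks, such a share nears 100% for any gene. Cells with at least 5 UMIs held 49.5, 52.2 and 39.8% of fibroblast Mcpt4 UMIs in K/B.g7 and 40.2, 70.3 and 55.1% in B.g7 by age, the highest in the 8-week B.g7 library, where a single cell held 48 UMIs. From 44.1 to 58.0% of Mcpt4 carriers held 1 UMI. For Mal the richest 1% held 46.4 to 78.6%, with at most 9 UMIs in a cell. For Rtn1 they held 21.3 to 35.8%, with at most 30.

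Mast cells are the usual source of this chymase, and their markers were read in the carriers. The 10 mast cell markers, among them Cpa3, Kit and the tryptase genes, summed to 0 to 8.72 CPM in Mcpt4 carriers of a library and to 1.30 to 6.33 CPM in the other fibroblasts, and were higher in carriers in 4 of 6 libraries. Kit, Ms4a2, Fcer1a, Tpsab1 and Mrgprb1 were at 0 in all Mcpt4 carriers. In the 137 fibroblasts with at least 5 Mcpt4 UMIs, 8 of the 10 markers were at 0 and the list had 2 UMIs of 940522. In the mast-like cells of 3 libraries, those with UMIs of Kit, the same list summed to 14379 to 116963 CPM. Cells that met the mast cell bar at 8 weeks held no Kit, and there the list summed to 11164.5 CPM in K/B.g7 and 8058.6 CPM in B.g7.

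Which fibroblasts carry the 3 genes was asked with 9 marker sets of fibroblast subsets. A fibroblast counted as positive with at least 2 UMIs of a set, and 78.0 to 88.6% of fibroblasts in a library were positive for 2 or more sets, so that the subsets overlap. All 3 genes were highest in Wif1-positive fibroblasts. Mcpt4 stood at 33.0, 54.4 and 25.1 CPM in Wif1-positive K/B.g7 fibroblasts at 3, 8 and 25 weeks, against 3.03, 3.36 and 3.62 CPM in those negative for Wif1. In B.g7 it stood at 101, 134 and 58.5 CPM against 10.9, 17.0 and 8.20 CPM. In each library the Wif1-positive value was the higher, and the other K/B.g7 fibroblasts spanned the narrowest range.

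Mal stood at 24.4, 36.0 and 17.2 CPM in Wif1-positive fibroblasts of K/B.g7 and at 2.04, 2.23 and 2.22 CPM in the others. In B.g7 it was 91.1, 73.0 and 38.7 CPM against 3.65, 4.79 and 1.99 CPM. Rtn1 stood at 81.1, 158 and 73.9 CPM against 14.1, 21.3 and 17.4 CPM in K/B.g7, and at 330, 376 and 157 CPM against 33.2, 53.0 and 26.0 CPM in B.g7. Wif1-positive cells were 21.5, 7.84 and 13.9% of K/B.g7 fibroblasts and 13.5, 14.7 and 20.3% of B.g7 fibroblasts. They nevertheless held 57.6 to 75.5% of fibroblast Mcpt4 UMIs, 60.3 to 84.0% of Mal and 45.3 to 64.3% of Rtn1.

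Over the 6 libraries the mean log2 ratio of Wif1-positive over other fibroblasts, on log2(CPM + 1), was 2.99 ± 0.16 for Mcpt4, 3.47 ± 0.25 for Mal and 2.65 ± 0.17 for Rtn1 (SE), each higher in 6 of 6 libraries. The two-sided exact sign-flip permutation test gave p = 0.0312 for each, the smallest that 6 libraries allow, and 0.0496 after Benjamini-Hochberg adjustment over the 27 pairs of gene and subset. Of these pairs, 3 were higher and 14 lower in the marker-positive cells. The 3 higher pairs were those with Wif1.

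Smoc2-, Tcf21- and Pi16-positive fibroblasts held less of all 3 genes. Smoc2 encodes a secreted calcium-binding matrix protein, Tcf21 a transcription factor of cardiac fibroblasts, and Pi16 marks adventitial fibroblasts of many tissues. In the Smoc2 set the mean log2 ratio was -2.17 ± 0.23 for Mcpt4, -2.57 ± 0.32 for Mal and -2.21 ± 0.22 for Rtn1 (SE). In the Pi16 set it was -1.47 ± 0.23, -2.06 ± 0.42 and -1.45 ± 0.22, and in the Tcf21 set -1.49 ± 0.16, -2.04 ± 0.31 and -1.55 ± 0.20. Each was lower in 6 of 6 libraries, with p = 0.0312 in the exact permutation test and 0.0496 adjusted.

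The other sets set the members apart from each other only as values. Chad, a cartilage matrix protein, marks a set with Cnmd in which Mcpt4 and Rtn1 were lower (-1.82 ± 0.76 and -1.16 ± 0.26) and Mal did not pass (-0.54 ± 0.78, adjusted p = 0.776, exact permutation test). The Cilp set held less Mal and Rtn1 (-1.64 ± 0.26 and -0.72 ± 0.20), and the Igfbp3 set less Rtn1 (-0.67 ± 0.24). No member passed for the Rbp4 set, with means of -0.24 to 0.01, or for the Mmp3 set, which had enough positive cells in 5 libraries only. The adjusted p of every pair that passed depends on how many pairs reach the smallest possible p. With a bar of 3 UMIs, without cells holding another kind's markers, in thinned shares or without any 1 library, the smallest adjusted p was 0.0527 to 0.0993 and no pair could pass, while all 17 pairs kept their sign.

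**Figure D2:**
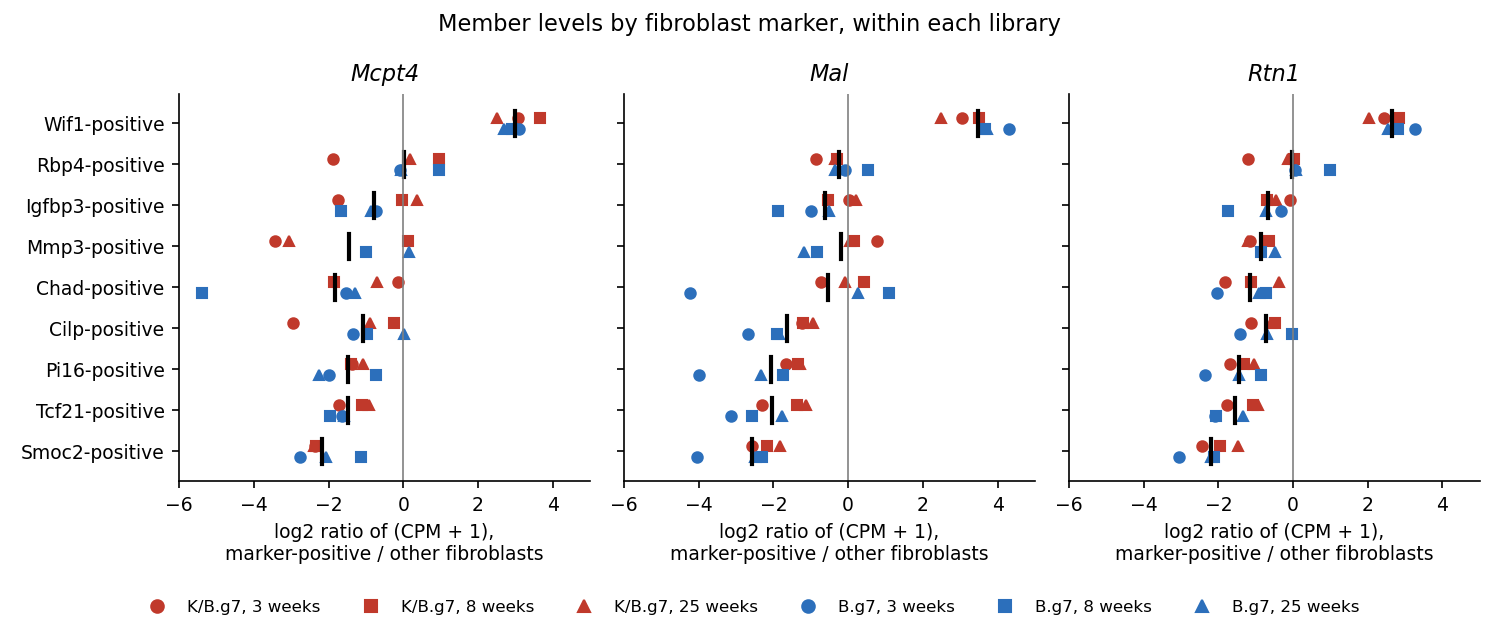
Log2 ratio of (CPM + 1) in marker-positive over other fibroblasts (horizontal axis) for 9 marker sets (rows) and the 3 genes (panels), with 1 point per library and a black line at the mean. All 6 points of the Wif1 row lie right of 0 for each gene, and all 6 of the Smoc2, Tcf21 and Pi16 rows lie left of it.

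Read from the carriers' side, Wif1-positive cells made up 56.1 to 66.2% of Mcpt4 carriers, 59.3 to 78.5% of Mal carriers and 31.5 to 52.7% of Rtn1 carriers in a library. Among fibroblasts without the respective gene they made up 7.04 to 20.8%, 6.76 to 20.2% and 5.24 to 18.8%. Of the fibroblasts with at least 5 UMIs, 97 of 137 for Mcpt4, 28 of 29 for Mal and 279 of 330 for Rtn1 were Wif1-positive. Summed over libraries, 482 of 814 Mcpt4 carriers, 658 of 933 Mal carriers and 1704 of 4080 Rtn1 carriers were Wif1-positive. Carriers were deeper than non-carriers in median UMIs in 6 of 6 libraries for Mcpt4 and in 5 of 6 for Mal and Rtn1, and the part of depth in these shares was not tested.

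Within Wif1-positive fibroblasts the selecting contrast was present again, and it is again a description. The ratio of B.g7 to K/B.g7 was 3.05, 2.46 and 2.33 for Mcpt4 at 3, 8 and 25 weeks, 3.73, 2.03 and 2.25 for Mal, and 4.07, 2.39 and 2.12 for Rtn1. In this subset the 3-week ratio was the largest for all 3 genes, where over all fibroblasts it was the 8-week one. The genotypes did not overlap for Mcpt4 and Mal. Rtn1 at 8 weeks in K/B.g7 (158 CPM) and at 25 weeks in B.g7 (157 CPM) overlapped. In the other fibroblasts Mcpt4 stood apart by 3.61, 5.06 and 2.26, and Rtn1 by 2.36, 2.49 and 1.49. Mcpt4 there was at 3.03 to 3.62 CPM in K/B.g7, within the ranges of mural-like (1.16 to 6.01 CPM) and macrophage-like cells (0 to 4.28 CPM). The K/B.g7 side is thus not told apart from background, and the size of these Mcpt4 ratios is uncertain. In B.g7 Mcpt4 was at 8.20 to 17.0 CPM, above all of these ranges. Mal in the other fibroblasts had ratios of 1.78, 2.15 and 0.896, the last with an interval of 0.636 to 1.25. These levels of Mal, 1.99 to 4.79 CPM, overlap the range of macrophage-like cells (0 to 4.62 CPM, with 4 of 6 libraries at 0). They are therefore not told apart from background, and no contrast is read from them.

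From 8.51 to 24.9% of the fibroblasts of a library carried at least 1 of the 3 genes, and 2 to 27 fibroblasts per library carried all 3. Because all 3 favour Wif1-positive cells, their pairs were compared within those cells and within the others. Among Wif1-positive fibroblasts, Rtn1 was found in 22.2 to 72.2% of Mcpt4 carriers and in 17.8 to 59.9% of the cells without Mcpt4, and was more frequent in the carriers in 6 of 6 libraries. It was also more frequent in Mal carriers in 6 of 6, for example in 87.8% of them against 53.6% in B.g7 at 8 weeks. Mal was found in 6.67 to 23.7% of Wif1-positive Mcpt4 carriers and in 5.61 to 26.0% of the cells without Mcpt4, and was more frequent in the carriers in 1 of 6 libraries. Among the other fibroblasts all 3 pairs were more frequent together in 6 of 6 libraries, on 23 to 100 carriers per library. These shares were not tested and were not matched for depth.

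**Figure D3:**
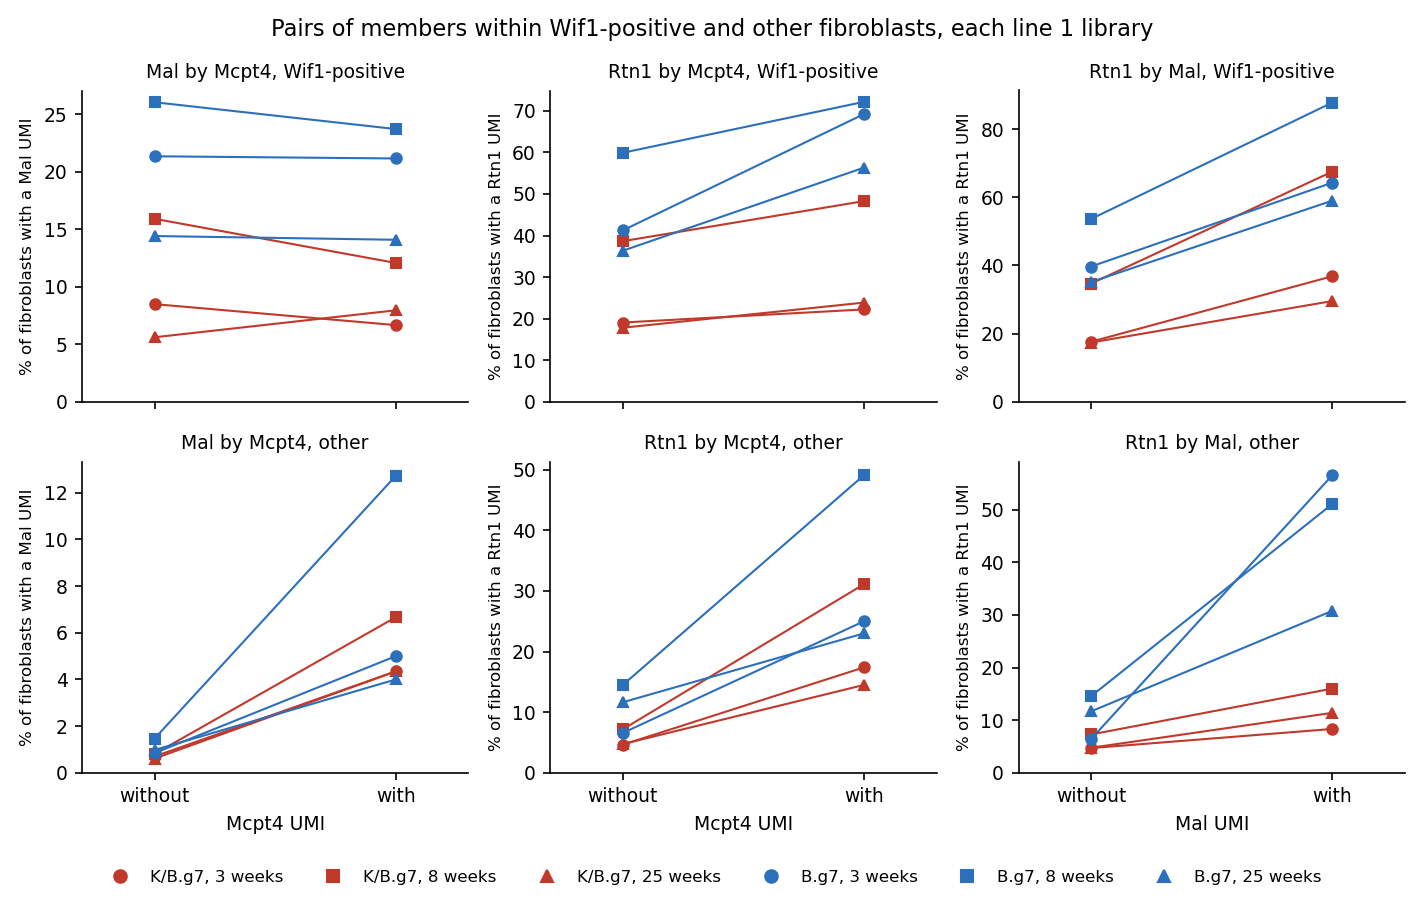
Percent of fibroblasts with a second member (vertical axis) among cells without and with the first member, within Wif1-positive fibroblasts (top row) and the other fibroblasts (bottom row), each line 1 library. For Mal by Mcpt4 within Wif1-positive cells 1 of 6 lines rises, and in every other panel all 6 rise.

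To see what else distinguishes the carriers, UMIs were summed over carriers and over the other fibroblasts of each library and compared over all genes (edgeR quasi-likelihood test, library as a block, Benjamini-Hochberg threshold of 0.05). The gene that defines the carriers is not counted. The 3 comparisons share libraries and cells, so that their values stand side by side without a test of overlap, and a carrier is by construction a cell in which a rare transcript was caught. Log2 changes below carry a plus sign when higher in carriers and are given with their SE. The median change over all genes was -0.03, -0.03 and -0.02 for Mcpt4, Mal and Rtn1.

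In Mcpt4 carriers 836 of 13033 genes were higher (6.41%) and 1151 lower (8.83%). Cdo1, the cysteine dioxygenase of taurine synthesis, led with a change of 2.59 ± 0.11 (adjusted p = 6.26e-14, edgeR), from a mean of 21.8 CPM in the other fibroblasts to 128 CPM in carriers. Spint2, an inhibitor of membrane serine proteases, changed by 2.41 ± 0.10, and Rspo3, a secreted amplifier of Wnt signals, by 2.16 ± 0.13. Col13a1, Ccdc42, Aldh3a1, Ociad2, Cyp2e1, Pdzrn4, Thrsp, Shisa2 and Wif1 were higher by 1.89 to 2.14, each in 6 of 6 libraries. Wif1 itself rose from 312 to 1131 CPM.

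The genes lower in Mcpt4 carriers were led by Pla1a, a phospholipase, at -2.59 ± 0.19 and by Prss23 at -2.57 ± 0.17. The matrix genes Spp1, Col8a1, Spon2, Smoc2 and Fn1 followed at -2.51 to -2.30, with Fn1, which encodes fibronectin, at 31.2 CPM in carriers and 151 CPM in the others. Dpep1, Cd248, Kcnk2 and the interferon-induced Ifi211 and Ifi205 were lower by -2.54 to -2.23. Without the library block the calls of Ifi211 (-2.41, adjusted p = 0.0974, edgeR), Kcnk2 (-2.16, 0.0713) and Ifi205 (-2.13, 0.224) ended. When each fibroblast was first thinned to 1000 UMIs, 115 genes were higher and 659 lower, and Ociad2, Pdzrn4 and Thrsp did not pass.

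In Mal carriers 1116 of 13262 genes were higher (8.42%) and 1263 lower (9.52%). Coch, which encodes the matrix protein cochlin, changed by 4.31 ± 0.19 (adjusted p = 4.43e-11, edgeR), from 7.24 to 141 CPM. Sez6l changed by 3.76 ± 0.22, the ligand gene Wnt16 by 3.57 ± 0.16 and Prss35, a protease-like gene, by 3.27 ± 0.13. Nrgn, Thrsp, Rspo3, Tesc, Spint2, Id4 and Cttnbp2 were higher by 2.73 to 3.18. H2-Ab1, a class II antigen presentation gene, was higher by 2.68 ± 0.17.

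Lower in Mal carriers were Smoc2 (-2.64 ± 0.20), Cd248 (-2.63 ± 0.17) and the matrix gene Hmcn2 (-2.61 ± 0.14). Spon2, Lrrn4cl, Efhd1, Pla1a, Dpep1, Podn, C7, Clec3b and Slc1a5 were lower by -2.56 to -2.19. After thinning, 136 genes were higher and 812 lower. Without the library block the calls of H2-Ab1 (2.35, adjusted p = 0.0750, edgeR), C7 (-2.12, 0.0877) and Mcpt4 (1.39, 0.0841) ended.

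In Rtn1 carriers 1169 of 13518 genes were higher (8.65%) and 1242 lower (9.19%). Coch (3.61 ± 0.29, adjusted p = 7.43e-06, edgeR) and Prss35 (3.18 ± 0.16) led again, and Mal itself followed with 2.82 ± 0.18, from 4.72 to 39.6 CPM. Spint2, Tesc, Rspo3, Mcpt4 and Wif1 were higher by 2.13 to 2.54. Npy, the neuropeptide Y gene, Clu, which encodes the chaperone clusterin, Rgs5, a mural cell marker, and Id4 were higher by 1.86 to 1.94.

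Lower in Rtn1 carriers were Cxcl14 and Ccl11, 2 chemokine genes, Eln, which encodes elastin, Penk, Apod, Podn, Dpep1, Adm, Smoc2, Ndufa4l2, Gpx3 and Entpd2. The changes were smaller than for the other members, with -1.21 ± 0.12 for Eln and -1.11 ± 0.13 for Smoc2. After thinning, 383 genes were higher and 474 lower. Without the library block 202 were higher and 33 lower, and the calls of Npy, Cxcl14, Apod, Ccl11, Eln, Dpep1, Penk and Gpx3 ended.

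Side by side, Spint2, Rspo3, Prss35, Wif1, Cyp2e1 and Clu were higher and Smoc2, Dpep1 and Pla1a lower in the carriers of each member. Coch was 0.27 ± 0.27 in Mcpt4 carriers (adjusted p = 0.587, edgeR) beside 4.31 and 3.61 in Mal and Rtn1 carriers. Npy was -0.05 ± 0.13 in Mcpt4 carriers (adjusted p = 0.874) beside 1.50 ± 0.14 in Mal carriers and 1.94 ± 0.18 in Rtn1 carriers. Fn1 was lower in Mcpt4 and Mal carriers, at -2.30 and -0.84, and did not pass in Rtn1 carriers (-0.14 ± 0.18, adjusted p = 0.671). Whether these changes differ between carriers was not tested.

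**Figure D4:**
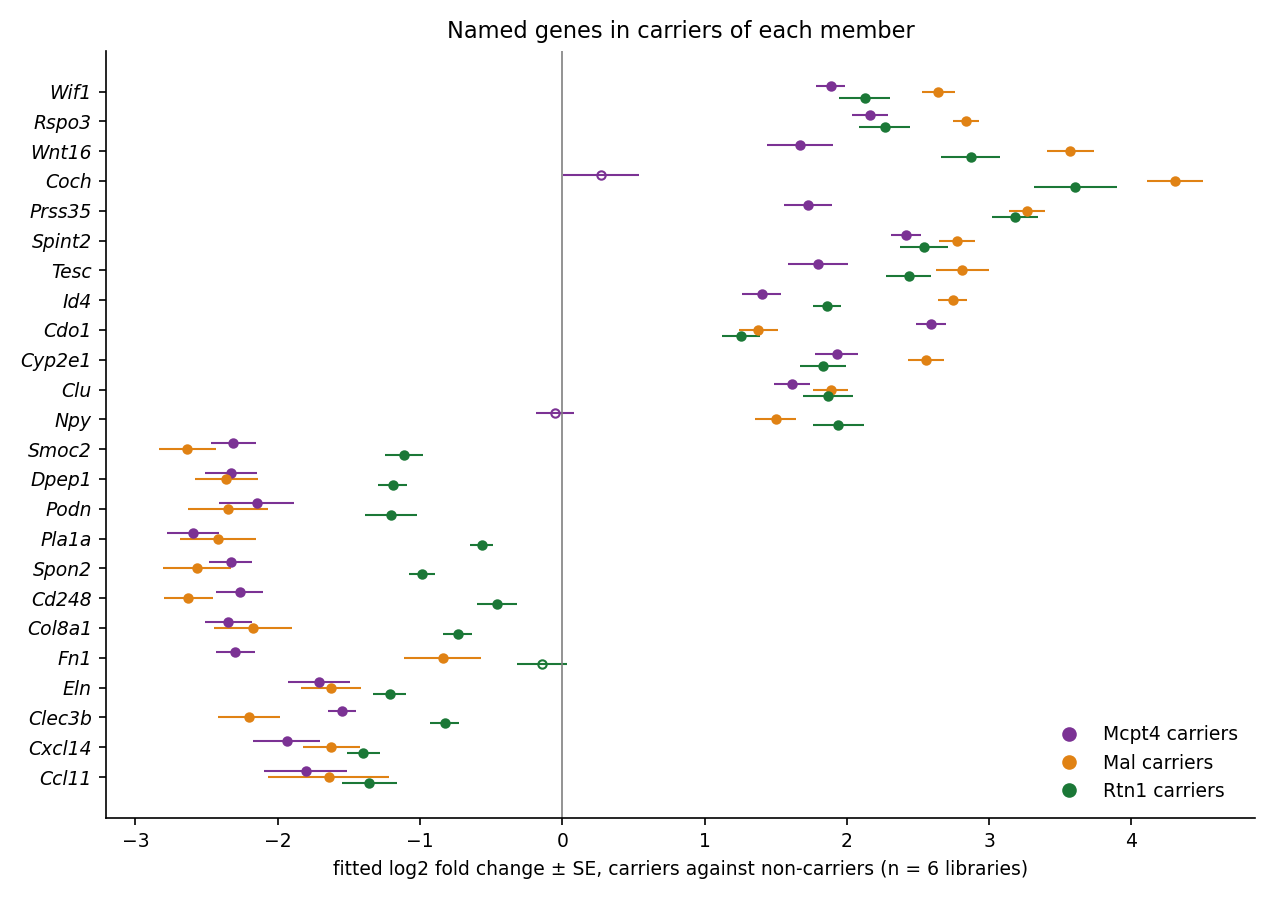
Log2 change in carriers against the other fibroblasts (horizontal axis, with SE) for 24 of the named genes in the 3 comparisons, with filled points for genes past the edgeR threshold and open points for those that did not pass. Coch and Npy are open near 0 for Mcpt4 and filled on the right for Mal and Rtn1, while Wif1, Rspo3 and Spint2 are filled on the right for all 3.

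The members were also found in each other's carriers. In Mcpt4 carriers Mal was higher by 1.77 ± 0.18 and Rtn1 by 1.82 ± 0.12, and in Mal carriers Rtn1 was higher by 2.50 ± 0.13 and Mcpt4 by 1.42 ± 0.17 (adjusted p from 1.37e-10 to 7.62e-06, edgeR). After thinning, Mal in Mcpt4 carriers stood at 0.46 (adjusted p = 0.797) and Mcpt4 in Mal carriers at -0.48 (adjusted p = 0.755, edgeR). The Rtn1 pairs still passed after thinning.

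Of 20 tested genes of Wnt signalling, 10 were higher and 4 lower in Mcpt4 carriers, 13 and 4 in Mal carriers, and 12 and 2 in Rtn1 carriers, with median log2 changes of 0.90, 1.35 and 0.78. Besides Wif1 and Rspo3, the ligand Wnt16, the feedback genes Axin2 and Notum and the receptor Lgr5 were higher in the carriers of each member. Dkk3, a secreted Dickkopf-family protein, was higher by 1.39 ± 0.08, 1.25 ± 0.08 and 1.06 ± 0.08. Lef1, a transcription factor of the pathway, was higher by 2.86 ± 0.19 in Rtn1 carriers. The secreted modulators Sfrp1 and Sfrp2 were lower in the carriers of each. The list therefore held activators, inhibitors and targets among its higher genes.

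Of the valve interstitial list, 13 of 20 genes were higher and 1 lower in Mcpt4 carriers, 12 and 2 of 19 in Mal carriers, and 12 and 1 of 19 in Rtn1 carriers. The medians were 0.54, 0.60 and 0.44. The transcription factor gene Msx1 was higher by 1.10 ± 0.09 in Mcpt4 carriers and 1.07 ± 0.10 in Mal carriers, and Postn, the periostin gene, by 1.03 ± 0.08 in Rtn1 carriers. Adamts19, a protease gene, was higher by 1.79 ± 0.14 in Mal carriers and 1.18 ± 0.11 in Rtn1 carriers. Penk was lower in the carriers of each member. Dcn, which helps to define the fibroblasts, is in this list and was among the higher in Mcpt4 carriers.

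The universal and adventitial fibroblast list went the other way, with 2 of 15 genes higher and 12 lower in both Mcpt4 and Mal carriers and 3 higher and 7 lower in Rtn1 carriers (medians -1.51, -1.61 and -0.26). Pi16 was lower by -1.51 ± 0.08, -2.13 ± 0.19 and -0.67 ± 0.10, and the collagen gene Col15a1 by -1.67 ± 0.08 in Mcpt4 carriers and -0.96 ± 0.10 in Rtn1 carriers. Limch1 and Dpt were the higher members in each. Of 18 collagen and matrix genes, 12, 13 and 12 were lower and 2, 0 and 0 higher (medians -0.57, -0.81 and -0.44). At an unadjusted p under 0.05, 3 were higher in Mal carriers and 2 in Rtn1 carriers, and DESeq2 called 0 higher in both. Col1a1 and Col1a2 were among the lower in the carriers of each member, and Dcn is also in the list. These 3 genes define the fibroblasts, so that their changes are no separate result. The 2 higher in Mcpt4 carriers were Dcn and Mgp, the matrix Gla protein gene, which stood at 15626 CPM in carriers and 9368 CPM in the others (0.71 ± 0.05). In Mal carriers Col3a1, a fibrillar collagen gene, stood at 1753 CPM beside 4296 CPM.

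Of 15 inflammatory fibroblast genes, 1 was higher and 10 lower in Mcpt4 carriers, 3 and 8 in Mal carriers, and 3 and 5 in Rtn1 carriers (medians -1.10, -0.73 and -0.04). The cytokine gene Il6 was lower in the carriers of each, by -1.10 ± 0.14, -1.14 ± 0.11 and -0.56 ± 0.09. Ccl19, a chemokine gene, was the higher one in Mcpt4 carriers. Of 14 myofibroblast genes, 1, 2 and 2 were higher, Postn in each, and 8, 7 and 6 lower (medians -0.52, -0.48 and -0.18), with the lysyl oxidase gene Lox at -2.16 ± 0.18 in Mcpt4 carriers. Of 19 cartilage and tendon genes, 7 were higher and 8 lower in Mcpt4 carriers, 6 and 6 in Mal carriers, and 7 and 9 in Rtn1 carriers (medians -0.24, -0.52 and -0.42). Prg4, the lubricin gene, and Sox9 and Scx, transcription factors of cartilage and tendon, were among the higher in each, and Cilp, Col2a1 and Tnmd among the lower. DESeq2 called fewer lower in 3 of these counts: 6 inflammatory genes in Mcpt4 carriers, and 3 and 4 cartilage and tendon genes in Mcpt4 and Mal carriers.

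Immediate early genes respond to tissue handling as well as to signals. Of 13 such genes, 0 were higher in Mcpt4 carriers by edgeR, at an unadjusted p under 0.05 and by DESeq2, and 3 were lower, while 1 was higher and 5 lower in Mal and in Rtn1 carriers, with no change beyond -0.37 to 0.31 (medians 0.01, -0.10 and -0.05). DESeq2 called 1 of these lower in Mcpt4 carriers and 3 in Mal carriers. Of 14 proliferation genes, 1 was higher and 1 lower in Mcpt4 and in Rtn1 carriers, Tpx2 and Tyms, and 0 of 14 passed in either direction in Mal carriers by edgeR or DESeq2, with 1 higher at an unadjusted p under 0.05. DESeq2 called neither of the pair in Mcpt4 carriers, and 1 higher and 0 lower in Rtn1 carriers.

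The relatives of each member did not share its pattern in one way. Of 14 chymase and granzyme genes of the Mcpt4 locus, 9 had 0 UMIs in fibroblasts and none reached a mean of 1 CPM, and 2 could be tested. Cma2 was higher in Mcpt4 carriers by 7.55 ± 0.46 and Mcpt2 by 5.49 ± 0.52. Cma2 was also higher in Rtn1 carriers by 2.19 ± 0.40 (adjusted p = 0.0021, edgeR) and did not pass in Mal carriers (1.78 ± 0.64, adjusted p = 0.0631), and Mcpt2 passed in neither. Of the 74 Cma2 UMIs in fibroblasts 65 were in Mcpt4 carriers, of the 114 Mcpt2 UMIs 73, and of the 39 Cma1 UMIs 3. Whether reads of Mcpt4 were counted for these relatives was not tested, and their values are uncertain.

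The MAL and MARVEL family gave 0 higher and 1 lower of 8 tested genes in Mcpt4 carriers, 0 and 4 of 9 in Mal carriers, and 0 and 2 of 9 in Rtn1 carriers (medians -0.09, -0.39 and -0.07). DESeq2 called 0 higher in each as well, and 1, 0 and 0 were higher at an unadjusted p under 0.05. Myadm, a myeloid differentiation marker with MARVEL domains, was the lower one in all 3, with -0.85 ± 0.11 in Mal carriers. Of the family, 8 of 12 genes reached 1 CPM in fibroblasts, where Myadm stood at 106 to 286 CPM and Plp2 at 65.6 to 103 CPM over the libraries. The reticulon list, with genes of the tubular endoplasmic reticulum, gave 1 higher and 0 lower of 12 in Mcpt4 carriers, 1 and 1 of 13 in Mal carriers, and 0 and 1 of 13 in Rtn1 carriers (medians 0.03, 0.05 and 0.01). DESeq2 called 0 of them in Rtn1 carriers, where 2 were higher at an unadjusted p under 0.05. Rtn4 stood at 261 to 398 CPM and Rtn3 at 88.4 to 126 CPM in fibroblasts. In Rtn1 carriers Rtn4 was at 0.11 ± 0.04 (adjusted p = 0.0861, edgeR), and Rtn2 was lower by -0.44 ± 0.14.

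The lists of the cell types in which the members are best known were also read. Of the mast cell list 0 of 4 tested genes passed in Mcpt4 carriers by edgeR or DESeq2, and 0 did at an unadjusted p under 0.05. In Mal carriers 0 passed by either tool, with 2 higher at an unadjusted p under 0.05, and 1 was higher in Rtn1 carriers, the vesicular transporter gene Slc18a2 (1.02 ± 0.31). Of the Schwann and myelin list 1 of 8 was higher in Mcpt4 carriers, 5 of 12 higher and 1 lower in Mal carriers, and 1 higher and 1 lower of 9 in Rtn1 carriers (medians -0.07, 1.77 and -0.02). S100b was the higher one in each, by 1.67 ± 0.12, 2.06 ± 0.11 and 1.47 ± 0.14. In Mal carriers the potassium channel gene Kcna1 was higher by 4.28 ± 0.63, and Sox10 and Foxd3 were also among the higher. Of the neuron list 0 of 7 passed in Mcpt4 carriers by edgeR or DESeq2, with 1 higher at an unadjusted p under 0.05, 1 of 7 was higher in Mal carriers (Tubb3, 1.94 ± 0.17), and 3 of 9 were higher in Rtn1 carriers (Tubb3, Syt1 and Uchl1).

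Markers of other cell kinds moved with the carriers as whole lists. The 8 glial markers, S100b among them, summed to 123 to 334 CPM in Mal carriers and 30.0 to 69.0 CPM in the other fibroblasts, higher in 6 of 6 libraries, beside 4633 to 7634 CPM in glial-like cells. They were also higher in 6 of 6 libraries in Mcpt4 carriers (88.6 to 206 CPM) and Rtn1 carriers (53.5 to 155 CPM). The 8 mural markers were higher in 5, 6 and 6 libraries for Mcpt4, Mal and Rtn1, and the 8 neuron markers in 4, 6 and 6, with 11.97 to 77.7 CPM in Rtn1 carriers beside at least 9649 CPM in neuron-like cells. The 8 endothelial markers were higher in 2, 5 and 5 libraries, with medians over libraries of 138 CPM in Mal carriers beside 58.5 CPM in the other fibroblasts, and of 107 beside 48.2 CPM for Rtn1. The list of NK or innate lymphoid cells was higher in 2, 5 and 6 libraries, with medians of 24.6 beside 5.97 CPM for Mal and 19.0 beside 3.93 CPM for Rtn1. No glial marker was at 0 in Mal carriers, and Th was the neuron marker at 0 in Rtn1 carriers. The part of other cells' transcripts in the carriers' profiles was not tested. Without the 136 to 1594 fibroblasts per library that held at least 3 different markers of another kind, 782 and 1176 genes were higher and lower in Mcpt4 carriers, 960 and 1188 in Mal carriers, and 1120 and 1004 in Rtn1 carriers.

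Outside fibroblasts, cells were sorted into kinds when they held at least 3 different markers of the kind, and are called by it with "-like". A cell kind of at least 20 cells in a library is described. Mcpt4 had its highest level in mast-like cells, of which a library held 0 to 5. In B.g7 it stood at 36208 CPM on 2 mast-like cells at 3 weeks and 21760 CPM on 5 at 25 weeks, and in K/B.g7 at 4985 CPM on 3 cells at 25 weeks. Summed per library, these cells held UMIs of Kit, Tpsb2 and Cma1. At 8 weeks 3 cells of either genotype met the same bar with 0 UMIs of Kit, Tpsb2, Tpsab1, Cma1 and Mrgprb1. The other markers of the list were present in K/B.g7 and B.g7. Hdc stood at 8049 and 4762 CPM, Cpa3 at 909 and 977, and Ms4a2 at 1039 and 611. Fcer1a stood at 389 and 366 CPM and Gata2 at 779 and 1343. Tpsab1 and Mrgprb1 were also at 0 in the K/B.g7 cells at 25 weeks. The markers of the 8-week cells are thus mixed, these cells are given no name, and they had no UMI of Mcpt4. So few cells permit no comparison.

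In the larger kinds Mcpt4 was highest in fibroblasts, at 7.15 to 40.4 CPM with a median of 14.3 over libraries. It stood at 1.16 to 6.01 CPM in mural-like cells, with a median of 2.61, and at 0 to 2.14 CPM in endothelial-like cells, with 2 of 6 libraries at 0. No UMI was seen in neuron-like cells, in B-like or lymphatic endothelial-like cells, or in glial-like cells of 5 of 6 libraries. In neuron-like cells of K/B.g7 at 3 weeks 0 UMIs allow up to 1.19 CPM. Fibroblasts held 57.8 to 92.2% of all Mcpt4 UMIs of a library.

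Mal was highest in glial-like cells, at 273 to 487 CPM in all 6 libraries, of which 38 to 132 cells were found. At 1000 UMIs it was seen in 25.5 to 46.2% of them. Endothelial-like cells came next with 17.9 to 188 CPM and a median of 69.6, and their lowest library reached down to the highest fibroblast libraries (4.68 to 18.4 CPM). Mural-like cells stood at 1.68 to 30.5 CPM, which overlaps the fibroblasts. In lymphatic endothelial-like cells no Mal UMI was seen in 4 libraries, and in T-like cells it stood at 3.34 to 6.22 CPM. Fibroblasts held 21.0 to 64.6% of all Mal UMIs.

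Rtn1 was highest in neuron-like cells, at 3295 CPM in K/B.g7 and 3439 CPM in B.g7 at 3 weeks, on 101 and 41 cells. At 8 weeks K/B.g7 had 1535 CPM on 35 such cells, with 137 of the 272 UMIs in 1 cell, B.g7 had 3 such cells, and no neuron-like cell was found at 25 weeks in either genotype. Glial-like cells at 3 weeks stood at 1686 and 381 CPM, where 1 cell held 249 of 578 UMIs in K/B.g7 and 66 of 67 in B.g7, and at 0 to 37.1 CPM later. Below these, fibroblasts (26.7 to 118 CPM), endothelial-like cells (28.1 to 86.7) and mural-like cells (8.18 to 208) overlapped each other. Macrophage-like cells held 9.03 to 37.5 CPM and T-like cells 2.09 to 11.7 CPM. Fibroblasts held 5.87 and 15.5% of all Rtn1 UMIs at 3 weeks, and 66.8 to 80.0% at 8 and 25 weeks.

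**Figure D5:**
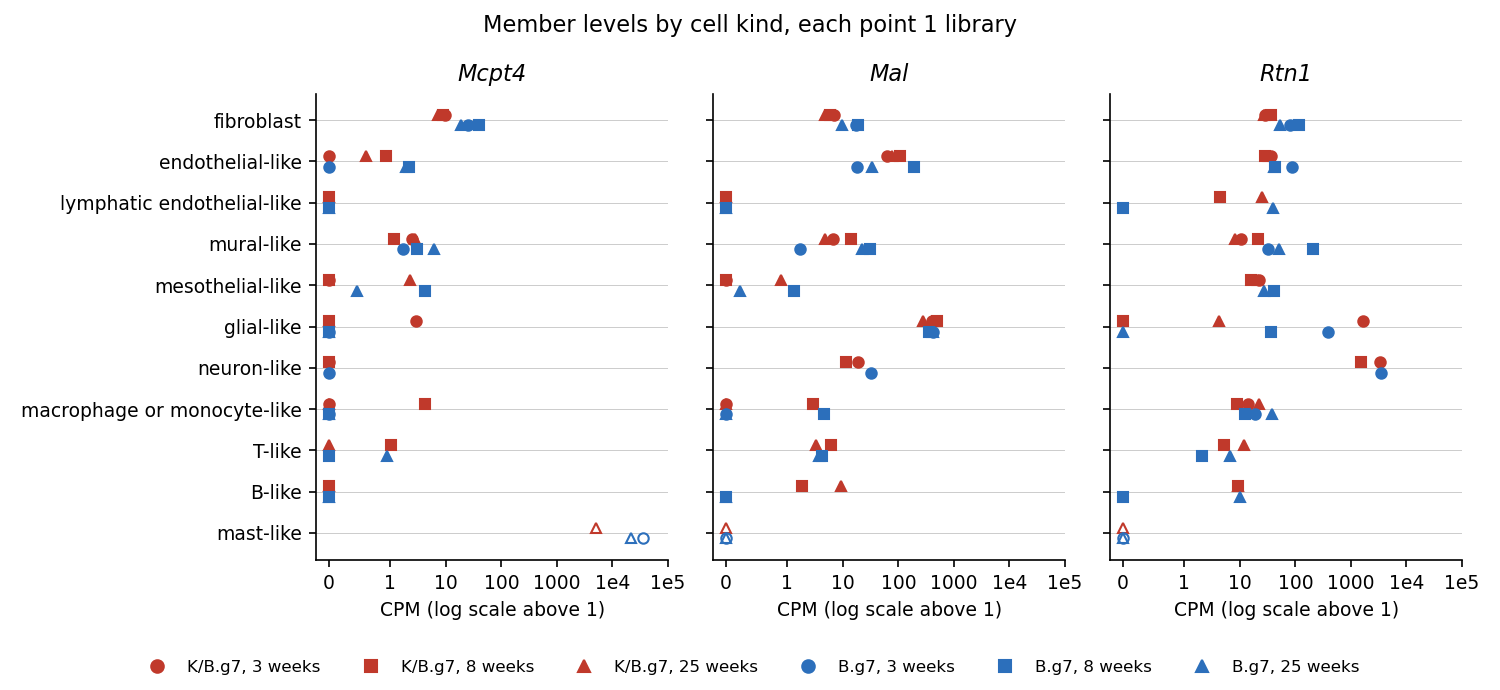
Level of the 3 genes in CPM (horizontal axis, linear from 0 to 1 and log scale above 1) by cell kind, each point 1 library. Open symbols mark mast-like cells, which are under 20 in each library and are shown for the 3 libraries where they held UMIs of Kit. Mal has its highest points in glial-like cells and Rtn1 in neuron-like cells, and among kinds of at least 20 cells Mcpt4 has its highest points in fibroblasts.

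Levels over 58 sums of 1 cell kind in 1 library, from 14 kinds, were used to find the genes most like each member (Pearson r of log2(CPM + 1), as a description; sums of a library share its depth and its free RNA). The nearest to Mcpt4 were Pth1r, a parathyroid hormone receptor gene, with r = 0.67, Dact1, Cyp2e1, C1qtnf1 and Wif1 with 0.64. Among the nearest to Mal were Ephx2, an epoxide hydrolase gene, with 0.82, Fam181b, Prnp and Cyp2j9. The nearest to Rtn1 were Chrm2, a muscarinic receptor gene, with 0.82, Ywhag, Prkar1b, Avil and Syngr3. Mast-like cells, where Mcpt4 was highest, had too few UMIs to be among these sums. Over the 14 kinds used, Wif1 is thus among the 5 nearest genes for Mcpt4, and not for Mal or Rtn1.

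Age did not select the genes and was tested over all genes in fibroblasts with genotype in the model. The members were, however, chosen for a small spread in a fit that held age, so that their residual spread here is small by choice. At 25 against 3 weeks 64 of 14508 genes were higher (0.441%) and 31 lower (0.214%), and no member passed. Mal stood at -0.71 ± 0.22 (adjusted p = 0.169, edgeR), Mcpt4 at -0.43 ± 0.25 (0.357) and Rtn1 at -0.34 ± 0.21 (0.391). At 8 against 3 weeks 409 genes were higher (2.82%) and 280 lower (1.93%), and again no member passed. Rtn1 stood at 0.51 ± 0.21 (adjusted p = 0.210, edgeR), Mcpt4 at 0.37 ± 0.25 (0.410) and Mal at -0.01 ± 0.22 (0.988).

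Genotype was tested in 2 other kinds, whose cells did not select the members though the libraries are the same. In mural-like cells Rtn1 stood at 10.4, 20.9 and 8.18 CPM in K/B.g7 and at 32.0, 208 and 51.1 CPM in B.g7, on 99 to 1397 cells. The 208 CPM came from the smallest group, 99 cells at a median of 1564 UMIs. How its Rtn1 UMIs were spread over these cells was not tested. Rtn1 was lower in K/B.g7 by -2.55 ± 0.32 on the log2 scale (adjusted p = 0.0012, edgeR with age as a block), lower in 3 of 3 ages. In this fit 13 of 8764 genes were higher (0.148%) and 7 lower (0.0799%). The call was lost without the 25-week libraries (-2.52, adjusted p = 0.498) and without the block (-2.92, adjusted p = 0.972). Mal in these cells stood at -1.12 ± 0.55 (adjusted p = 0.593), and Mcpt4 was too low to be tested.

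In endothelial-like cells 1 of 10935 genes was higher (0.00914%) and 0 lower (0%) in K/B.g7 by edgeR, where DESeq2 called 1 lower and edgeR had 137 lower before adjustment, at p under 0.05. Rtn1 stood at 37.0, 28.1 and 33.3 CPM in K/B.g7 and at 86.7, 42.8 and 42.1 CPM in B.g7. Rtn1 did not pass in these cells (-0.77 ± 0.22, adjusted p = 0.719, edgeR). Mal stood at 61.5, 108 and 77.8 CPM against 17.9, 188 and 33.7 CPM, with the 8-week B.g7 library above and the other 2 below all K/B.g7 libraries (0.54 ± 0.45, adjusted p = 0.999). Without the 8-week libraries Mal was higher in K/B.g7 by 1.40 (adjusted p = 0.0012, edgeR). Mcpt4 was too low to be tested.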

How the data were processed

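Cells sorted from digested mitral valves were profiled in 6 droplet libraries, 1 per genotype (K/B.g7, B.g7) and age (3, 8 and 25 weeks). The authors deposited whole-number UMI counts per gene and cell, made with Cell Ranger 3.1.0 on mm10, per the submitters' processing notes. Which annotation version, cell caller or doublet removal was used is not given in the sources used here. Of 58351 barcodes, 53526 were kept at 500 or more UMIs, 300 or more genes and at most 10% mitochondrial UMIs. No doublet caller was run, and cells with markers of another kind were left out as an alternative. Fibroblasts held at least 1% of UMIs from Dcn, Col1a1 and Col1a2, and a cell was positive for a subset at 2 or more UMIs of its markers. Other kinds needed 3 different markers. That gate was set after the data were seen, in place of 1 that asked for 3 UMIs, and so was the alternative without fibroblasts of 3 markers of another kind.

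The members, gene lists and subsets were chosen with earlier results of these data known. UMIs were summed per library and group. Carriers were compared with edgeR 4.0.16 (R 4.3.3, limma 3.58.1) on 12 sums with library as a block, because both sums of a pair come from the same library. Ages were compared with genotype in the model, and genotypes in other kinds with age as a block, since a K/B.g7 and a B.g7 library share an age. TMM factors, filterByExpr and the quasi-likelihood test were used at a Benjamini-Hochberg threshold of 0.05, and an SE is the size of the log2 change divided by the root of its F value. The effect of age within a genotype and of genotype within an age has 1 library on each side, and a model with their interaction leaves no residual degrees of freedom and could not be fitted. Subsets of at least 20 positive fibroblasts were compared on log2(CPM + 1) by an exact sign-flip permutation test over libraries. Intervals are exact 95% Poisson or binomial ones and cover counting error only, and the limit for a count of 0 is 3 counts. For depth-matched values each cell was thinned to 1000 UMIs.

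Named genes were up to 12 per direction with the largest log2 change among those past the threshold, of the same sign in 6 libraries and with a mean of at least 20 CPM, leaving out mitochondrial, ribosomal, haemoglobin, immunoglobulin, sex-linked and unnamed genes. For each list they were up to 4 genes of the smallest p, and for likeness the 5 of the highest r with a mean of at least 5 CPM over sums of at least 50000 UMIs. Other genes named from a short count were chosen after their values were seen. Alternatives were DESeq2 1.42.0, RLE factors, no low-count filter, no block, thinned cells, fibroblast cuts of 0.5 and 2%, cells without other kinds' markers, 1 or 3 UMIs for a subset and each library left out. Tests were tried on simulated data with 200 changed genes. All simulated sums shared a common gene profile apart from these genes, without effects of library, genotype or age. Carriers were not chosen there by a caught transcript, so that the rates below hold for that simpler setting only. At a 2-fold and 4-fold change the carrier fits recovered 67 and 94% (Mcpt4, 13034 genes), 65 and 88% (Mal, 13263 genes) and 91 and 96% (Rtn1, 13519 genes). The age fits on 14508 genes recovered 40 and 90% at 25 weeks and 38 and 85% at 8 weeks, and the genotype fits 40 and 86% in endothelial-like cells (10935 genes) and 30 and 84% in mural-like cells (8764 genes). Of the genes called in these simulations 6.4, 2.55 and 5.08% were false calls for Mcpt4, Mal and Rtn1 carriers, where the threshold allows 5% on average, with 2.99 and 3.15% for 25 and 8 weeks and 0 and 0.87% for the genotype fits. Gene positions come from GENCODE vM21 and promoter sequences from RefSeq (GRCm38.p6). Python 3.11.15 with numpy 2.4.6, pandas 2.3.3, scipy 1.17.1 and matplotlib 3.10.9 was used for the rest. Some results are not reported here.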

Additional observations from a re-analysis of the deposited data

Results flagged for a closer look

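Between 3 and 8 weeks Mcpt4 and Mal moved in opposite directions in the fibroblasts of the 2 genotypes. The log2 ratio of CPM at 8 over 3 weeks was -0.10 for Mcpt4 in K/B.g7 fibroblasts, beside 0.71 in those of B.g7. For Mal the K/B.g7 value was -0.22, beside 0.11 in B.g7. Each ratio compares 1 library with 1 library, and the difference between the genotypes was not tested.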

How the results depend on the processing

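With DESeq2, 749 genes were lower in Mcpt4 carriers, 390 higher and 233 lower at 25 weeks, 711 and 494 at 8 weeks, 2 and 1 in endothelial-like cells and 4 and 4 in mural-like cells. With no block, and so without the pairing, the higher and lower genes were 299 and 291 for Mcpt4, 522 and 376 for Mal, 202 and 33 for Rtn1, 2 and 2 at 25 weeks and 0 and 0 in mural-like cells, with 0 higher in endothelial-like cells. Thinned to 1000 UMIs, they were 115 and 659, 136 and 812, and 383 and 474 in the 3 carrier comparisons. With the fibroblast cut at 2% they were 377 and 752 for Mcpt4, 469 and 708 for Mal and 114 and 62 at 25 weeks, where a cut of 0.5% gave 0 and 0. Without possible doublets 698 were higher for Mal, with 667 higher and 505 lower for Rtn1 and 123 and 80 at 25 weeks, and without fibroblasts of 3 markers of another kind, chosen after seeing the data, 102 and 57 at 25 weeks. With no low-count filter the counts were 743 and 313 at 25 weeks, 1119 and 623 at 8 weeks, 117 and 13 in endothelial-like and 102 and 91 in mural-like cells, and RLE factors gave 25 and 21 in mural-like cells. Pairs of gene and subset past the threshold were 0 higher and 0 lower at 3 or more UMIs, without possible doublets, without cells of 3 markers and in thinned shares, where 16, 15, 16 and 14 of the 27 pairs had an unadjusted exact permutation p under 0.05. The cause of these changes was not tested, except that the smallest adjusted p was then above 0.05.

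Leaving out 1 library gave 633 to 818 genes higher and 869 to 1116 lower for Mcpt4, 889 to 1067 and 1017 to 1162 for Mal, and 906 to 1127 and 910 to 973 for Rtn1. At 25 weeks the range was 5 to 144 higher and 0 to 128 lower, with 5 and 0 without K/B.g7 at 3 weeks, 19 and 1 without K/B.g7 at 25 weeks, 144 and 128 without B.g7 at 3 weeks and 118 higher without B.g7 at 25 weeks. At 8 weeks it was 7 to 665 and 9 to 385, with 7 and 9 without K/B.g7 at 3 weeks, 665 higher without K/B.g7 at 8 weeks and 648 without B.g7 at 8 weeks. Leaving out 1 age gave 0 to 99 higher and 0 to 47 lower in endothelial-like cells and 0 to 99 and 0 to 140 in mural-like cells, the highest without 8 weeks, and 0 to 0 subset pairs in either direction. Of 1537 values of single genes and pairs under the alternatives, 1341 kept their direction and side of the threshold, 192 lost the call and 3 gained it. The 1 reversed value was Mcpt4 in Mal carriers after thinning (-0.48, adjusted p = 0.755, edgeR). The mean log2 ratio in Wif1-positive fibroblasts ranged from 2.73 to 3.33 for Mcpt4, 3.30 to 3.67 for Mal and 2.53 to 2.78 for Rtn1. The number of cells limits the rare kinds, with 0 to 5 cells at the mast cell bar in a library, and Mcpt4 was too low for a test in endothelial-like and mural-like cells.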
